A study of Mus musculus with 18 samples.

Results

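The 10 genes described here encode proteins of the smooth muscle contractile apparatus and its cytoskeleton: Acta2, Actg2, Tagln, Cnn1, Smtn, Lmod1, Synpo2, Myh11, Mylk and Des. All 10 were found by symbol in each of the 3 deposited count tables, among 24421 genes per table. They were chosen from their levels in these same libraries, as CPM (counts per 1000000 counts of a library), in all 6 groups. Their levels and differences are therefore a description, given without p-values. Where edgeR calls among them are counted, the share over all genes stands beside, and nothing is read from the calls.

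Bulk RNA-seq counts of 18 libraries of mouse esophageal organoids, three-dimensional cultures grown in a basement membrane gel, fell into 6 groups. The groups were premalignant sgTgfbr2 (n = 4, in 2 numbered lines of 2 libraries), premalignant sgScr (n = 3), tumor sgTgfbr2 (n = 2), tumor sgScr (n = 3), and tumor sgTgfbr2 organoids given 2 µM pinaverium bromide (PB, n = 3) or DMSO as vehicle (n = 3). Every group carried Trp53-/-, Myc OE (Myc overexpression) and sgCdkn2a, a guide RNA against Cdkn2a. sgTgfbr2 is a guide against Tgfbr2, the type II receptor of TGF-beta, and sgScr was read as the control guide. PB, a calcium channel blocker, was added after 72 h of culture. The listed medium of all 6 groups held 2 µM A83-01, which blocks signaling by the type I TGF-beta receptor, and 10 µM Y27632. Nothing in the labels tells whether replicates are separate cultures or animals, or what sets the 2 premalignant sgTgfbr2 lines apart; the p-values below thus reflect the spread between libraries alone, and it may be technical. The numbers of 2 and 3 libraries in the tumor table limit the precision further.

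Smooth muscle shortens when a myosin motor pulls on thin filaments of smooth muscle actins. Calcium entering the cell binds calmodulin, which switches on myosin light chain kinase, and the kinase phosphorylates the regulatory light chain of the motor. Serum response factor (SRF), with coactivators of the myocardin family, acts on many genes of the apparatus through a DNA element called the CArG box, and TGF-beta is a known inducer of several of them. The muscle coat of the mouse esophagus is largely striated, while smooth muscle makes up the coat of the stomach and the walls of blood vessels. Myofibroblasts share part of the program, above all Acta2 and Tagln.

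The libraries held 14993749 to 21784140 counts over 15565 to 16713 detected genes. A count of 3 in a library, taken here as the lowest count that can be told from 0, stood for 0.138 to 0.2001 CPM, counting error only. Tgfbr2 itself averaged 113 ± 21.2 CPM in premalignant sgTgfbr2 and 195 ± 20.8 CPM in premalignant sgScr (SD, n = 4 and 3). It averaged 69.3 ± 2.64 CPM in tumor sgTgfbr2 and 120.3 ± 8.76 CPM in tumor sgScr (SD, n = 2 and 3), and 68.3 ± 1.32 CPM under PB and 96.8 ± 5.24 CPM under vehicle (SD, n = 3 each). Markers of the labelled squamous epithelium (7 genes, such as Krt5, Krt14 and Trp63) were counted in all 6 groups, with mean sums of 8309 and 10643 CPM in premalignant sgTgfbr2 and sgScr, 22959 and 122982 CPM in tumor sgTgfbr2 and sgScr, and 8777 and 10551 CPM under PB and vehicle. Krt13 and Krt4, keratins of the upper layers, made up most of the sum in tumor sgScr, at 56029 and 64026 CPM, against 7701 and 3986 CPM in tumor sgTgfbr2, whereas the basal keratins Krt5 and Krt14 were higher in tumor sgTgfbr2, at 4389 and 5628 CPM, against 1338 and 1097 CPM in tumor sgScr. The tumor sgTgfbr2 and sgScr libraries stood apart from the other 13 in that they also held markers of several other cell types, given below. The labels call all 18 libraries organoids, and whether these 5 held cells of the surrounding tissue was not given in the labels. A group of bulk libraries cannot tell fewer cells of a type from less RNA per cell, and this holds for every level below.

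Across the 6 groups, the 10 genes formed 2 patterns. Smtn was counted in all 18 libraries, between 40.6 and 311 CPM, and was lowest in the tumor sgTgfbr2 and tumor sgScr libraries. The other 9 genes reached at least 10.8 CPM in each of those 5 libraries and at most 3.76 CPM in each of the other 13. The summed level of the 10 genes was 1990 ± 109.8 CPM in tumor sgTgfbr2 and 2116 ± 99.8 CPM in tumor sgScr (SD, n = 2 and 3). It was 256 ± 57.4 CPM in premalignant sgTgfbr2 and 200.3 ± 33.0 CPM in premalignant sgScr (SD, n = 4 and 3), and 119 ± 5.81 CPM under PB and 146 ± 1.77 CPM under vehicle (SD, n = 3 each). Smtn made up 97.2% and 98.4% of the sum in premalignant sgTgfbr2 and sgScr, and 98.3% and 96.2% under PB and vehicle. In the tumor table it made up 2.73% of the sum in sgTgfbr2 and 2.07% in sgScr. In those 13 libraries the label of smooth muscle contractile genes therefore rested on Smtn, which epithelial cells also express, and the defining members Acta2, Myh11 and Actg2 were at or near the counting floor. The 3 tables were made separately, so levels set across them are descriptions.

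**Figure D1:**
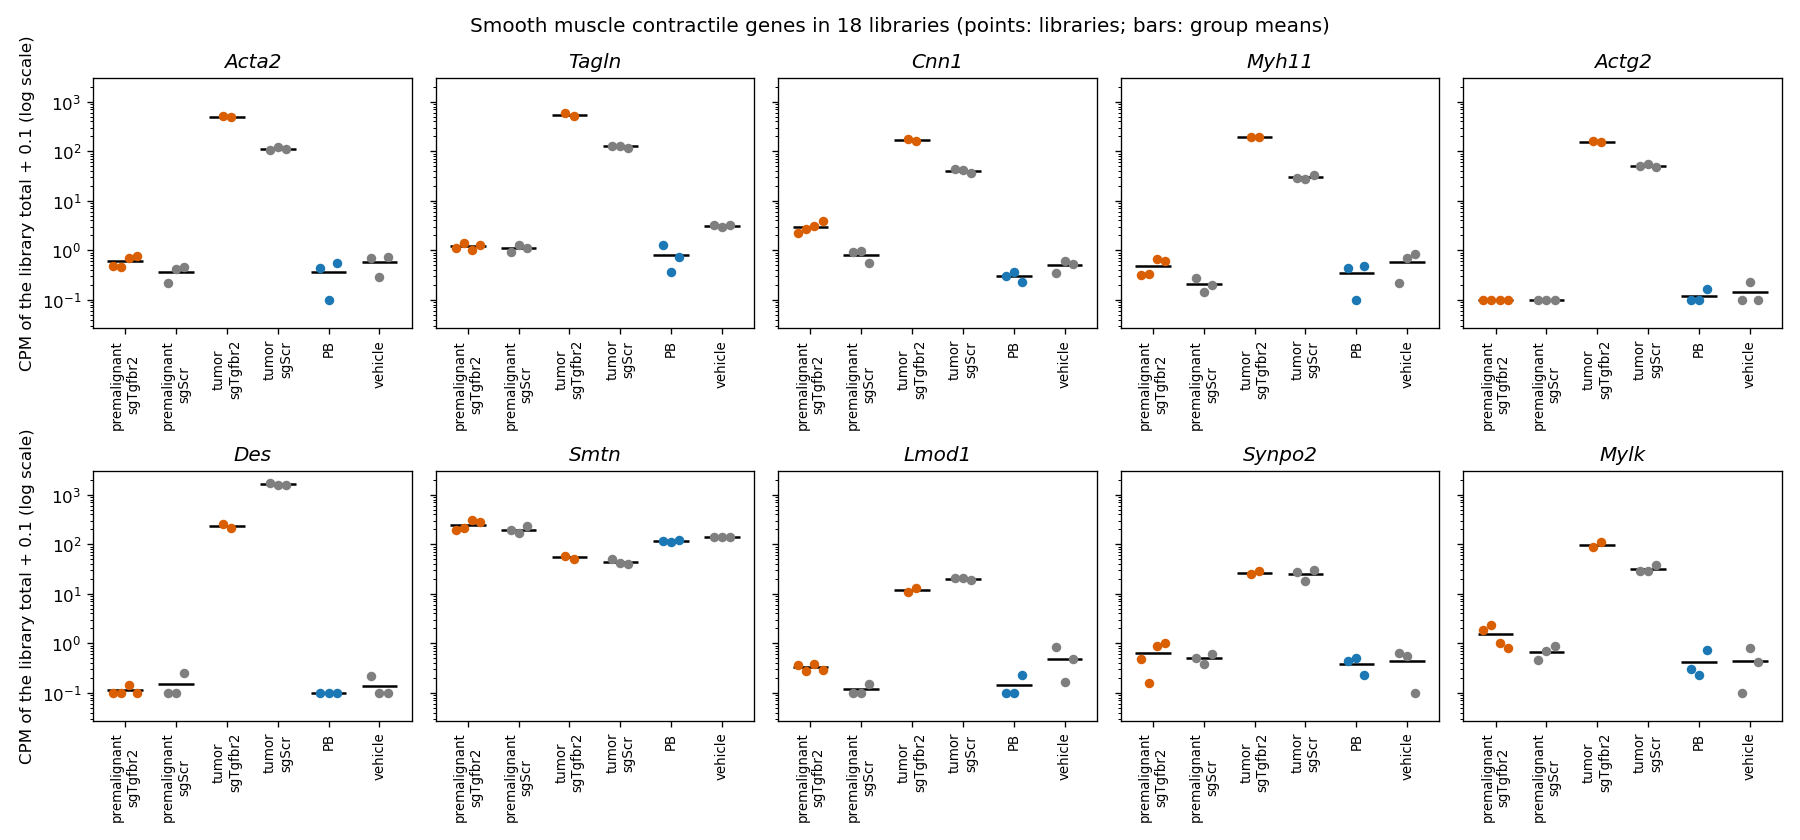
Level of each of the 10 genes in every library, as CPM of the library total plus 0.1 on a log scale; points are libraries, bars are group means, and PB and vehicle are tumor sgTgfbr2 organoids. In the 2 tumor sgTgfbr2 and 3 tumor sgScr libraries all 10 genes stand at 10.8 CPM or more. Smtn alone is lower there than in the other libraries.

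Because Acta2 and Cnn1 differed alike between the tumor groups and Lmod1 differed the other way, the 250 bases upstream of their RefSeq start sites (build GRCm38.p6) are shown with the CArG box of SRF searched in each. Promoter entries were matched by symbol for 7 of the 10 genes. The exact CArG box was in none of the 7 windows, and 1.47% of 32851 mouse promoter windows of the same length held one. After that search, 1 mismatch was allowed. Then 2 of the 7 genes, Acta2 and Lmod1, held 2 boxes each, against 18.6% of all windows with at least 1 box. The pattern reads the same on both strands. Capitals mark the boxes with 1 mismatch, at -84 to -75 and -34 to -25 from the start site of Acta2 and at -189 to -180 and -164 to -155 from that of Lmod1. A match is a description of these letters and not a site of binding.
Acta2 (chr19:34255374-34255623, minus strand): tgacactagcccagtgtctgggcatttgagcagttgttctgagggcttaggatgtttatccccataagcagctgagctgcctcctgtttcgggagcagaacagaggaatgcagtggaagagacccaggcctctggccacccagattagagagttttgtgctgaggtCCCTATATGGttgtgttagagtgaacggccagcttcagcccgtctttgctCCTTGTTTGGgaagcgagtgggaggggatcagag
Lmod1 (chr1:135324563-135324812, plus strand): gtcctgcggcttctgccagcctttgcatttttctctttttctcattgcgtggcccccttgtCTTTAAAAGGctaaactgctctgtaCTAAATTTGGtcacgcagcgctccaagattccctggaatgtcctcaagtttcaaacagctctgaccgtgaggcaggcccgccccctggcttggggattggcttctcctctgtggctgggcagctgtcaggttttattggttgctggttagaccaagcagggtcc
Cnn1 (chr9:22099003-22099252, plus strand): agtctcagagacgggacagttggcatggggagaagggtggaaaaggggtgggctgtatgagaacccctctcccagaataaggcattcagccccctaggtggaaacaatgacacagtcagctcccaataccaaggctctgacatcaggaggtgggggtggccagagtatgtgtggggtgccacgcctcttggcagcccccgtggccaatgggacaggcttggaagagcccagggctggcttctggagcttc

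The tumor table set sgTgfbr2 against sgScr libraries. Acta2, Tagln, Cnn1, Myh11, Actg2 and Mylk were all higher in tumor sgTgfbr2, by 3.03 to 6.43 times in CPM, Des and Lmod1 were lower, and Smtn and Synpo2 differed little. In edgeR, 6 of the 10 genes were called higher and 2 lower at an adjusted p of 0.05, and 2 were not past the threshold. Over all 15091 genes tested, 29.8% were called higher and 30.5% lower. All 10 genes passed the filter on low counts, and their median log2 fold change was 1.33, beside -0.02 over all genes tested. The choice of the genes used this contrast, so nothing is read from these counts. In CPM, 7 genes had both sgTgfbr2 libraries above all sgScr libraries, 2 had both below and 1 overlapped. Among 17639 genes with more than 3 counts in these libraries, 42.0% had both sgTgfbr2 libraries above and 26.0% both below.

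Log2 fold changes are given from edgeR with TMM scaling, with their standard errors. Scaling by the library total moved the median of all genes by 0.29 in the tumor table, by -0.14 in the PB table and by 0.07 in the premalignant table. On that scale the tumor calls were 6046 higher and 3361 lower, against 4492 and 4603 with TMM, and the PB calls were 3301 higher and 6155 lower, against 4666 and 4713.

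Among the thin filament actins, Acta2 encodes smooth muscle alpha-actin (chromosome 19, 34241090 to 34255590, minus strand, GRCm38). It had 511 and 483 CPM in tumor sgTgfbr2, against 106, 123 and 110.1 CPM in tumor sgScr. Both sgTgfbr2 libraries were above all 3 sgScr libraries, with a log2 fold change of 1.85 ± 0.13 (SE), or 2.13 on the library total. Actg2, the gamma-actin of visceral smooth muscle (chromosome 6, 83512905 to 83536265, minus strand), had 158 and 154 CPM in tumor sgTgfbr2, against 49.7, 56.0 and 48.5 CPM in tumor sgScr. Its groups did not overlap either, and its log2 fold change was 1.31 ± 0.13, or 1.60 on the library total. Per kilobase of exon, Acta2 stood at 226 CPM and Actg2 at 100.2 CPM in tumor sgTgfbr2, and Acta2 at 51.5 CPM and Actg2 at 33.0 CPM in tumor sgScr. The actins are a family of near-identical proteins: of windows of 50 bases, 7 of 1986 in the longest Acta2 transcript (0.352%) and 0 of 1284 in that of Actg2 were shared with a transcript of another actin gene. Neither the read length nor the treatment of shared reads was given in the sources used here.

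Tagln encodes transgelin, an actin-bundling protein also called SM22-alpha (chromosome 9, 45929619 to 45936058, minus strand). Its level was 588 and 503 CPM in tumor sgTgfbr2, against 129, 129 and 118 CPM in tumor sgScr. The groups did not overlap, and the log2 fold change was 1.84 ± 0.13. Cnn1, calponin 1, binds actin and slows the myosin motor (chromosome 9, 22099216 to 22109630, plus strand). Its level was 179 and 165 CPM in tumor sgTgfbr2, against 43.4, 42.5 and 35.6 CPM in tumor sgScr, again without overlap, with a log2 fold change of 1.80 ± 0.14. Relative to Acta2 in the same library, Tagln stood at 1.10 in tumor sgTgfbr2 and 1.11 in tumor sgScr, and Cnn1 at 0.345 and 0.359, so that these 3 genes stood in nearly the same proportions in both groups.

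The other thin filament proteins behaved differently. Smtn, smoothelin, an actin-binding protein (chromosome 11, 3517523 to 3540612, minus strand), had 58.4 and 50.5 CPM in tumor sgTgfbr2, against 50.0, 41.0 and 40.6 CPM in tumor sgScr. Both sgTgfbr2 libraries lay just above the highest sgScr library, and its log2 fold change was 0.03 ± 0.15 with TMM and 0.31 on the library total, not past the threshold by either scaling. Lmod1, leiomodin 1, a protein that starts new actin filaments in smooth muscle (chromosome 1, 135324807 to 135368065, plus strand), had 10.8 and 13.0 CPM in tumor sgTgfbr2, against 20.8, 20.3 and 18.5 CPM in tumor sgScr. Both sgTgfbr2 libraries were below all sgScr libraries, with a log2 fold change of -1.03 ± 0.20, or -0.74 on the library total. Synpo2, synaptopodin 2, an actin-binding protein of striated and smooth muscle (chromosome 3, 123076519 to 123236149, minus strand), had 24.8 and 28.4 CPM in tumor sgTgfbr2, against 26.8, 18.4 and 29.7 CPM in tumor sgScr. The groups overlapped, and the sign of its log2 fold change turned with the scaling, at -0.19 ± 0.19 with TMM and 0.09 on the library total.

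Myh11 encodes the smooth muscle myosin heavy chain, the motor itself (chromosome 16, 14194535 to 14291372, minus strand). It had 193 and 194 CPM in tumor sgTgfbr2, against 29.0, 27.9 and 33.3 CPM in tumor sgScr. Its log2 fold change of 2.40 ± 0.13, or 2.69 on the library total, was the highest of the 10 genes by both scalings. Mylk, the myosin light chain kinase (chromosome 16, 34745210 to 35002420, plus strand), had 88.4 and 108 CPM in tumor sgTgfbr2, against 28.7, 29.3 and 37.4 CPM in tumor sgScr, without overlap, and a log2 fold change of 1.34 ± 0.15. Relative to Acta2, Myh11 stood at 0.390 ± 0.017 in tumor sgTgfbr2 and 0.268 ± 0.038 in tumor sgScr (SD, n = 2 and 3), and the libraries of the 2 groups did not overlap. Actg2 stood at 0.314 ± 0.0075 and 0.455 ± 0.014 of Acta2, lower in tumor sgTgfbr2 without overlap, and Mylk at 0.199 ± 0.037 and 0.283 ± 0.052, also without overlap. These ratios show unequal differences and not which gene of a pair differed.

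Des encodes desmin, the intermediate filament of muscle cells, which smooth, striated and cardiac muscle all use (chromosome 1, 75360329 to 75368579, plus strand). It had 258 and 213 CPM in tumor sgTgfbr2, against 1745, 1595 and 1565 CPM in tumor sgScr. It was lower in both sgTgfbr2 libraries than in any sgScr library, with a log2 fold change of -3.08 ± 0.15, or -2.80 on the library total. Des stood at 0.473 of Acta2 in tumor sgTgfbr2 and 14.5 of Acta2 in tumor sgScr, and it made up 11.8% of the summed level of the 10 genes in tumor sgTgfbr2 and 77.2% in tumor sgScr. Without Des and Smtn, a sum that was not planned, the other 8 genes came to 1700 ± 72.9 CPM in tumor sgTgfbr2 and 437 ± 8.53 CPM in tumor sgScr (SD, n = 2 and 3). That sum leaves out Des, the gene with the largest difference the other way. On the library total, the sum of all 10 overlapped between the groups, at 1913 to 2068 CPM and 2037 to 2228 CPM, with a slightly lower mean in tumor sgTgfbr2. Other denominators set the groups further apart. The means were 1765 CPM in tumor sgTgfbr2 and 2294 CPM in tumor sgScr on the TMM-scaled total. They were 2219 and 2577 CPM without the 10 highest genes of each library.

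**Figure D2:**
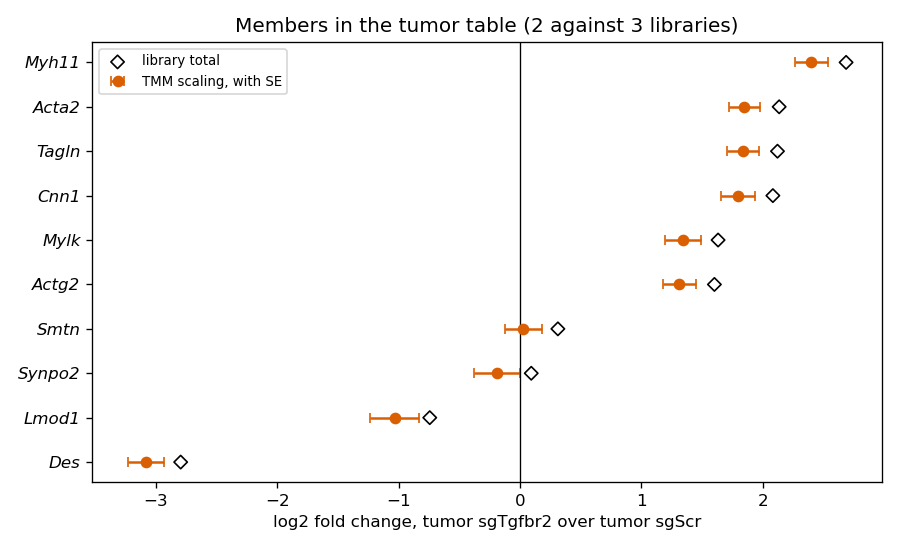
Log2 fold change of each of the 10 genes, tumor sgTgfbr2 over tumor sgScr (2 against 3 libraries), by edgeR with TMM scaling and its standard error (filled) and with the library total as scale (open). Myh11 stands at 2.40 and Des at -3.08 with TMM, and the library total moves all genes to the right by about the median shift of 0.29.

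**Figure D3:**
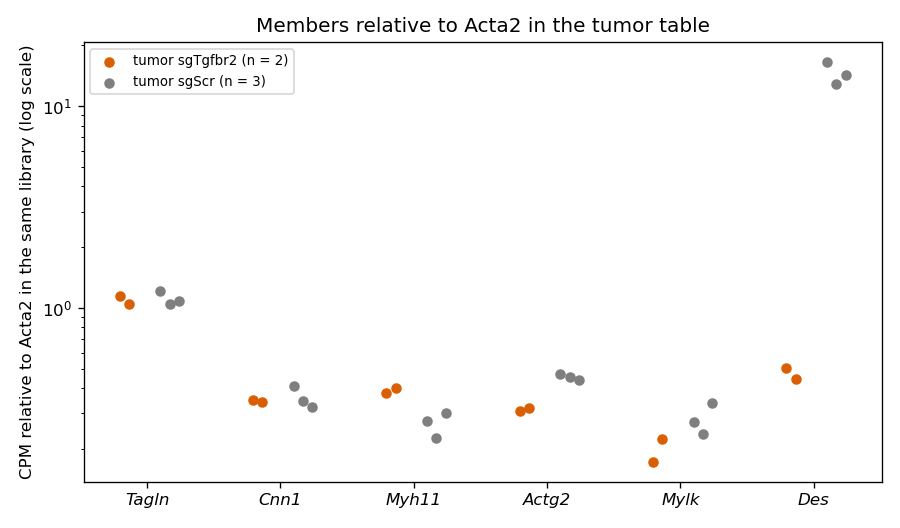
CPM of 6 genes divided by the CPM of Acta2 in the same library, on a log scale, for 2 tumor sgTgfbr2 and 3 tumor sgScr libraries. Tagln and Cnn1 overlap between the groups, Myh11 is higher in sgTgfbr2, Actg2 and Mylk are lower, and Des stands near 0.473 in sgTgfbr2 and 14.5 in sgScr.

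Markers of other cell types moved with these levels, and their part in the differences was not tested. The 16 skeletal muscle markers, such as Acta1, Ckm and Ttn, summed to 21.2 to 22.5 CPM in tumor sgTgfbr2 and 21772 to 22695 CPM in tumor sgScr. All 16 fell by edgeR, beside 30.5% called lower over all 15091 genes tested. Of them, Tnnc2, Myh2, Myh8, Myod1 and Myog were at 0 in both sgTgfbr2 libraries. The 8 gastric gland markers, such as Gkn1, Tff1 and Muc6, summed to 28235 to 31309 CPM in tumor sgTgfbr2 and to 0 to 0.211 CPM in tumor sgScr, where Gkn1, Gkn2, Tff1, Tff2, Muc5ac and Gif were at 0. The level of Des in tumor sgScr and the levels of Acta2, Myh11 and Actg2 in tumor sgTgfbr2 therefore stood in libraries that also differed in these lists, and the guide and the tissue content cannot be told apart here. The 6 cardiac muscle markers summed to 52.5 to 56.0 CPM in tumor sgTgfbr2, with Actc1 at 0, and 336 to 363 CPM in tumor sgScr, with Myh6 and Nppa at 0.

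Cells that carry Acta2 outside muscle coats were represented in both tumor groups. The 8 pericyte markers, such as Rgs5 and Pdgfrb, summed to 206 to 225 CPM in tumor sgTgfbr2 and 119 to 159 CPM in tumor sgScr, with 3 genes higher, 1 lower and 4 not past the threshold. The 12 fibroblast markers, such as Col1a1 and Dcn, summed to 2867 to 2969 CPM in tumor sgTgfbr2 and 3470 to 3632 CPM in tumor sgScr, with 2 higher, 8 lower and 2 not past it. Over all genes tested, 29.8% were called higher and 30.5% lower. The sums were 107 to 111 CPM in tumor sgTgfbr2 and 137 to 155 CPM in tumor sgScr for 7 endothelial markers. They were 754 to 785 CPM and 922 to 939 CPM for 7 immune markers, and 87.5 to 108 CPM and 43.4 to 45.3 CPM for 8 markers of enteric neurons, glia and interstitial cells of Cajal. In the other 13 libraries, where 9 of the 10 genes lay below 4 CPM, the endothelial sum was at most 2.12 CPM and the fibroblast sum at most 69.4 CPM, whereas the pericyte sum reached 298 CPM. That sum was almost all Notch3, which epithelial cells also express: without Notch3, the other 7 pericyte markers summed to 159 to 164 CPM in tumor sgTgfbr2 and 75.4 to 83.1 CPM in tumor sgScr, and to at most 12.2 CPM in the other 13 libraries. Pericyte markers other than Notch3, fibroblast markers and endothelial markers were therefore high in the same 5 libraries as the smooth muscle genes.

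**Figure D4:**
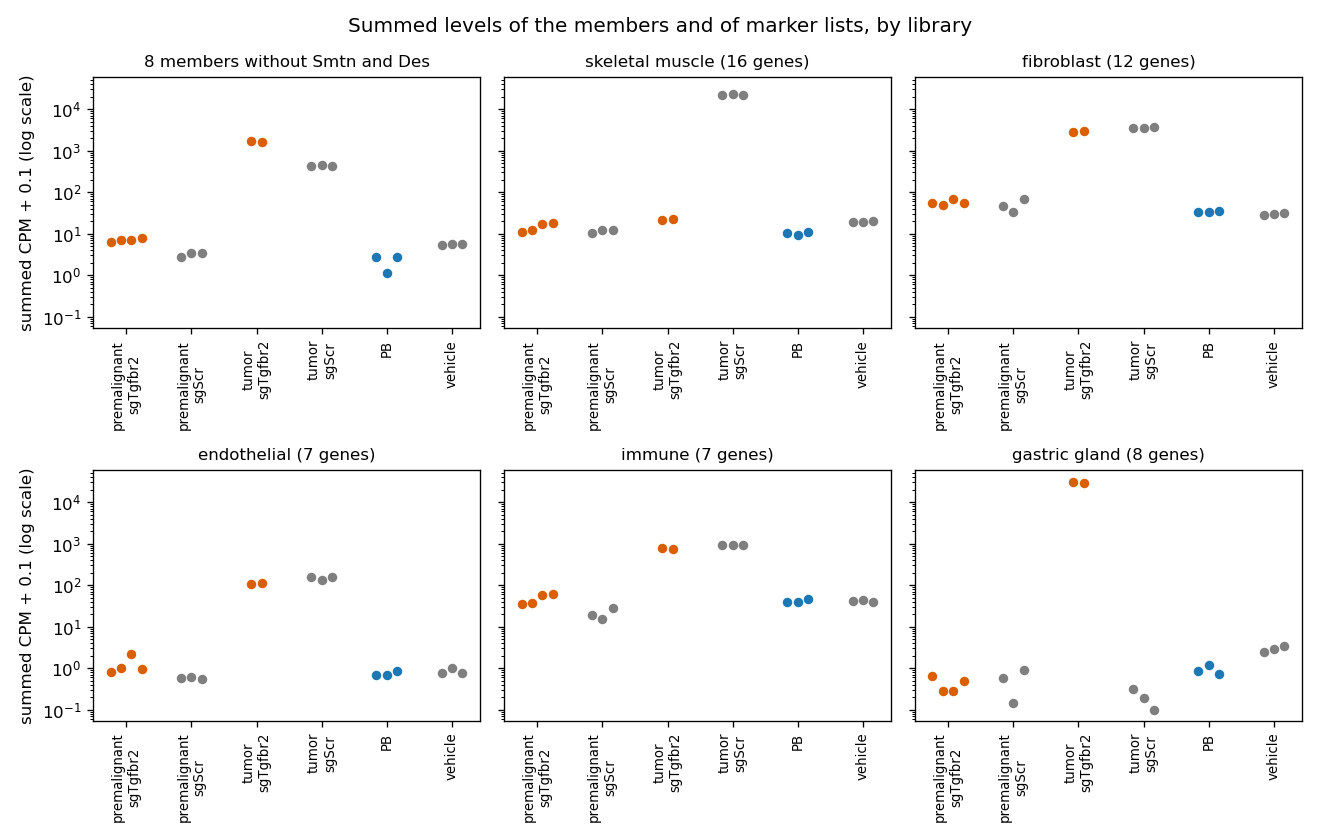
Summed CPM plus 0.1, on a log scale, of 8 of the 10 genes (without Smtn and Des) and of 5 lists of cell type markers, for each of the 18 libraries; points are libraries. The 8 genes, the fibroblast, endothelial and immune lists are high in both tumor groups, the skeletal muscle list in tumor sgScr, and the gastric gland list in tumor sgTgfbr2.

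Other genes of the smooth muscle apparatus went both ways in the tumor table, as did all genes tested, with 29.8% called higher and 30.5% lower. Of 30 further contractile, cytoskeletal and calcium handling genes, 11 rose, 13 fell and 6 were not past the threshold, with a median log2 fold change of -0.18. The 6 with the smallest p all fell. They were Tpm1 and Tpm2, which encode tropomyosins of muscle (log2 fold changes -2.61 ± 0.14, edgeR adjusted p = 2.27e-13, and -3.03 ± 0.14, 2.87e-14), and Pdlim3, a Z-disc protein (-2.89 ± 0.15, 2.08e-13). Hspb6, a small heat shock protein of muscle, fell to 13.8 ± 3.48 CPM in tumor sgTgfbr2, against 317 ± 21.4 CPM in tumor sgScr (SD, n = 2 and 3; adjusted p = 7.05e-16). Fhl1, a LIM protein of muscle (-3.62 ± 0.15, 2.48e-15), and Smtnl2, a relative of smoothelin (-5.35 ± 0.22, 2.52e-15), fell as well. Striated muscle also uses Tpm1, Tpm2, Pdlim3, Hspb6 and Fhl1, and their levels in tumor sgScr stood beside the skeletal muscle sum above. Among those that rose, chosen after their values were seen, were Cald1, caldesmon (log2 fold change 1.35 ± 0.13, edgeR adjusted p = 6.34e-09), Myl9, the regulatory light chain of smooth muscle myosin (0.97 ± 0.13, adjusted p = 8.49e-07), and Pln, phospholamban (2.81 ± 0.59, adjusted p = 2.97e-04). Myl9 averaged 157 CPM in tumor sgTgfbr2 and 65.6 CPM in tumor sgScr.

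Among 18 transcription factors and cofactors of smooth muscle or gut mesenchyme, 5 rose, 6 fell and 5 were not past the threshold in the tumor table, with 16 tested. Over all genes tested, 29.8% were called higher and 30.5% lower. Barx1, a homeobox factor of the stomach mesenchyme, had 46.2 ± 1.10 CPM in tumor sgTgfbr2 and 1.54 ± 0.091 CPM in tumor sgScr (SD, n = 2 and 3; log2 fold change 4.62 ± 0.22, edgeR adjusted p = 2.97e-14). Hand2, a factor of visceral mesenchyme (4.74 ± 0.41, adjusted p = 1.29e-09), and Gata6 (2.80 ± 0.26, adjusted p = 5.21e-09) rose with it. Gata6 was also counted in premalignant organoids, at means of 3.01 CPM in sgTgfbr2 and 2.32 CPM in sgScr. The other 2 that rose, named after their values were seen, were Mkl1, a myocardin relative (0.75 ± 0.18, adjusted p = 0.00130), and Heyl (0.88 ± 0.32, adjusted p = 0.0235), which lost its call without sgScr replicate 1 or 2 or either sgTgfbr2 library (highest adjusted p = 0.0704). Mef2c, a factor of muscle differentiation, fell to 6.05 ± 1.65 CPM in tumor sgTgfbr2, against 92.5 ± 12.8 CPM in tumor sgScr (SD, n = 2 and 3; -4.22 ± 0.20, adjusted p = 3.15e-14). Tead1 (-1.14 ± 0.15, adjusted p = 1.13e-06) and Prrx1 (-0.99 ± 0.20, adjusted p = 1.79e-04) fell too. Srf itself had 58.8 ± 9.74 CPM in tumor sgTgfbr2 and 38.7 ± 8.02 CPM in tumor sgScr, and did not pass the threshold with TMM (0.32 ± 0.17, adjusted p = 0.109). It passed on the library total (0.61, adjusted p = 0.00518) and without tumor sgScr replicate 1 (0.50, adjusted p = 0.0216) or tumor sgTgfbr2 replicate 2 (0.51, adjusted p = 0.0219). Myocd, the myocardin gene, was too low to be tested, at 0.273 and 0.284 CPM.

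Of 20 receptors, channels and second messenger enzymes of smooth muscle, 16 were tested in the tumor table. Of these, 6 rose, 2 fell and 8 were not past the threshold, beside 29.8% higher and 30.5% lower over all genes tested. Kcnma1, the large-conductance calcium-activated potassium channel, rose by 2.11 ± 0.41 on the log2 scale (edgeR adjusted p = 1.25e-04). Ednra, the endothelin A receptor (1.46 ± 0.39, adjusted p = 0.00263), and Pde5a, the cyclic GMP phosphodiesterase (0.93 ± 0.17, adjusted p = 7.97e-05), rose as well. Itpr1, the calcium release channel of the endoplasmic reticulum (0.58 ± 0.19, adjusted p = 0.0100), lost its call without tumor sgTgfbr2 replicate 2 (0.44, adjusted p = 0.102). Ptger3, a prostaglandin receptor (-1.48 ± 0.24, adjusted p = 1.47e-05), and the calcium channel subunit Cacna2d1 (-1.21 ± 0.19, adjusted p = 1.09e-05) fell. Cacna1c, the pore of the L-type calcium channel of smooth muscle, had 5.06 and 3.76 CPM in tumor sgTgfbr2 and sgScr and did not pass (0.14 ± 0.33, adjusted p = 0.722).

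In premalignant organoids, sgTgfbr2 against sgScr, the contractile genes were near the floor in both groups and only Smtn was plentiful. Of the 10 genes, 4 passed the filter on low counts (Tagln, Cnn1, Smtn and Mylk); edgeR called 1 higher at the adjusted p of 0.05, and none of the 4 log2 fold changes was below 0, beside 22.7% called higher and 23.5% called lower among 13098 genes tested. In CPM, 4 of the 10 genes had all sgTgfbr2 libraries above all sgScr libraries, none had them below and 6 overlapped, beside 24.1% above and 19.2% below among 16514 genes with more than 3 counts. The choice of the genes used this contrast too, so nothing is read from these counts. Cnn1 was the gene called. It had 2.12 and 2.58 CPM in line 1 and 2.94 and 3.76 CPM in line 2 of premalignant sgTgfbr2, against 0.820, 0.872 and 0.458 CPM in premalignant sgScr. Its counts came to 204 over the 4 sgTgfbr2 libraries and 42 over the 3 sgScr libraries, and the log2 fold change was 1.91 ± 0.35.

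Smtn had 194 and 208 CPM in line 1 and 311 and 282 CPM in line 2 of premalignant sgTgfbr2, against 190.5, 168 and 233 CPM in premalignant sgScr. Line 1 lay within the range of sgScr and line 2 above it, and the log2 fold change over both lines was 0.27 ± 0.18. Mylk had 1.79 and 2.22 CPM in line 1 and 0.920 and 0.714 CPM in line 2, against 0.352, 0.597 and 0.763 CPM in sgScr. Line 1 was above all sgScr libraries and line 2 overlapped them, with a log2 fold change of 1.21 ± 0.48 over both lines, 1.74 with line 1 alone and 0.44 with line 2 alone.

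Tagln, at 1.03, 1.32, 0.920 and 1.17 CPM in premalignant sgTgfbr2, against 0.820, 1.19 and 1.02 CPM in sgScr, overlapped between the groups. The defining genes Acta2, Myh11 and Lmod1 were too low to be tested and were separated by a few counts. Acta2 had 0.359 to 0.649 CPM in sgTgfbr2 and 0.117 to 0.356 CPM in sgScr, from 36 and 16 counts in all. Myh11 had 0.217 to 0.552 CPM in sgTgfbr2 and 0.0459 to 0.176 CPM in sgScr, from 28 and 6 counts, and Lmod1 had 17 counts in sgTgfbr2 and 1 in sgScr. Des had 1 and 3 counts over the groups, and Actg2 had none in any of the 7 libraries, where 3 counts would be 0.138 to 0.195 CPM. Synpo2 overlapped, at 0.0599 to 0.909 CPM and 0.275 to 0.509 CPM, with both libraries of line 2 above sgScr.

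The part of other cell type lists in the premalignant levels was not tested. The skeletal muscle list, at 10.8 to 17.7 CPM in sgTgfbr2 and 10.5 to 12.2 CPM in sgScr, and the fibroblast list, at 48.8 to 68.4 CPM and 33.4 to 69.4 CPM, overlapped between the groups. Most of the fibroblast sum was Fn1, at means of 52.6 and 47.9 CPM. Pdgfra, the other gene of that list that was tested, was called higher in sgTgfbr2, at 2.90 and 0.926 CPM. The pericyte list was higher, at 169 to 197 CPM in sgTgfbr2 and 75.7 to 109 CPM in sgScr, of which Notch3 alone averaged 169 and 89.0 CPM; without Notch3 the list summed to 3.31 to 12.2 CPM and 2.90 to 4.51 CPM and overlapped. The immune list stood at 35.1 to 60.8 CPM in sgTgfbr2 and 14.9 to 27.9 CPM in sgScr, most of it Cd68, with Lyz2, Tyrobp and Cd3e at 0 in both groups. The cardiac list stood at 10.1 to 10.6 CPM and 5.00 to 6.67 CPM, with Actc1 at 0 in both groups. Its genes went both ways: Tnnt2 was higher in sgTgfbr2, at means of 7.97 and 2.32 CPM, and Myl7 lower, at 0.943 and 2.69 CPM. The endothelial list stood at 0.706 to 2.12 CPM and 0.458 to 0.505 CPM, with Emcn at 0 in both, and the enteric list was lower, at 35.3 to 42.4 CPM and 46.1 to 55.8 CPM, most of it Ano1. The defining pericyte gene Rgs5 was at 0 in sgTgfbr2, as was Abcc9, and Kcnj8 and Higd1b were at 0 in sgScr. Lum and Col3a1 were at 0 in both groups, and so was Myog.

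Of the 30 other contractile genes, 21 were tested in the premalignant comparison. Of these, 7 rose, 4 fell and 10 were not past the threshold, beside 22.7% higher and 23.5% lower over all genes tested. Ppp1r12b, a subunit of myosin phosphatase, rose to 10.6 ± 3.53 CPM in sgTgfbr2, against 2.61 ± 0.564 CPM in sgScr (SD, n = 4 and 3; log2 fold change 1.95 ± 0.30, edgeR adjusted p = 9.81e-04). Csrp1, a LIM protein (0.78 ± 0.10, adjusted p = 5.53e-04), and Ckb, brain creatine kinase (0.52 ± 0.09, adjusted p = 0.00190), were among the others that rose, and Smtnl2 (-0.66 ± 0.11, adjusted p = 0.00126) and Tpm2 (-0.59 ± 0.10, adjusted p = 0.00134) fell. The other 2 that fell, named after their values were seen, were Myl6, the essential light chain of myosin (-0.52 ± 0.12, adjusted p = 0.00659), and Casq2, the calsequestrin of cardiac and smooth muscle (-1.44 ± 0.30, adjusted p = 0.00403). Of the 18 regulators, 11 were tested, with 3 higher, 3 lower and 5 not past the threshold: Tead1 rose (0.63 ± 0.09, adjusted p = 8.97e-04), and Srf (-0.54 ± 0.09, adjusted p = 0.00164) and Klf4, a repressor of smooth muscle genes (-0.35 ± 0.08, adjusted p = 0.00499), fell. So did Tbx18, named after its values were seen, at 0.0899 CPM in sgTgfbr2 and 0.793 CPM in sgScr (-3.03 ± 0.73, adjusted p = 0.00841). It had no count in line 1, so a fold with that line alone has no fixed size, and its log2 fold change was -2.11 with line 2 alone and -4.15 without the first library of line 2. Mef2d (0.33 ± 0.11, adjusted p = 0.0342) and Mkl2, a myocardin relative (0.46 ± 0.17, adjusted p = 0.0497), passed narrowly. Mef2d lost its call without sgScr replicate 1 or 2 (highest adjusted p = 0.156), or the first replicate of either sgTgfbr2 line, and with the libraries of each line summed. Mkl2 lost it without any 1 of the 3 sgScr libraries (highest adjusted p = 0.189), either library of line 2, with line 1 alone, or with the libraries of each line summed. Myocd had no count.

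Of the 20 receptors and channels, 6 were tested, with 2 higher, 1 lower and 3 not past the threshold. Over all genes tested, 22.7% were called higher and 23.5% lower. Itpr1 rose (0.77 ± 0.11, adjusted p = 7.45e-04 by edgeR), and Cacna2d1 rose (1.66 ± 0.56, adjusted p = 0.0343) but lost its call without any 1 of the 3 sgScr libraries, either library of line 1 and with line 2 alone (0.45, adjusted p = 0.343). The one that fell, named after its values were seen, was Ptger3 (-1.70 ± 0.61, adjusted p = 0.0451), which lost its call, among other alternatives, with DESeq2 (adjusted p = 0.0538) and without any 1 of the 3 sgScr libraries (highest adjusted p = 0.148), and was at -2.73 without the first library of line 2. Cacna1c had 0.669 ± 0.565 CPM in sgTgfbr2 and 1.195 ± 0.288 CPM in sgScr (SD, n = 4 and 3), with -0.90 ± 0.66 over both lines (adjusted p = 0.288) and -2.57 with line 1 alone (adjusted p = 0.00605).

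PB was set against vehicle in tumor sgTgfbr2 organoids. The label of both groups was tumor sgTgfbr2, as in the tumor table, but their smooth muscle genes were at the level of the premalignant libraries: Acta2 had 0.333, 0 and 0.451 CPM under PB and 0.606, 0.195 and 0.624 CPM under vehicle. Of the 10 genes, 2 passed the filter, Tagln and Smtn, and edgeR called both lower. Over 12801 genes tested, 36.5% were called higher and 36.8% lower. The choice of the genes used this contrast too, so nothing is read from these calls. In CPM, none of the 10 genes had all PB libraries above vehicle, 2 had them below and 8 overlapped, beside 22.4% above and 42.1% below among 16238 genes with more than 3 counts.

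Tagln had 1.20, 0.264 and 0.644 CPM under PB, against 3.09, 2.86 and 3.18 CPM under vehicle, from 32 and 146 counts in all. All PB libraries were below all vehicle libraries, with a log2 fold change of -1.97 ± 0.30. The first PB library was the highest of the 3, and without it the value was -2.58. Smtn had 118, 112 and 122 CPM under PB, against 139, 140.1 and 142 CPM under vehicle, without overlap, and a log2 fold change of -0.12 ± 0.03 with TMM or -0.26 on the library total. Lmod1 had 2 counts over the PB libraries and 19 over the vehicle libraries, and overlapped at 0 to 0.129 CPM and 0.0651 to 0.727 CPM. Cnn1 had 0.129 to 0.264 CPM and 0.242 to 0.521 CPM, Myh11 0 to 0.386 CPM and 0.121 to 0.749 CPM, Mylk 0.132 to 0.644 CPM and 0 to 0.716 CPM, and Synpo2 0.129 to 0.396 CPM and 0 to 0.545 CPM under PB and vehicle. Actg2 had 1 and 2 counts in all, and Des had none under PB and 2 under vehicle. These 7 genes and Acta2 did not pass the filter on low counts and were not tested. The PB and vehicle libraries overlapped for each of them taken alone.

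Other cell type lists were also set side by side. The cardiac list summed to 10.0 to 10.2 CPM under PB and 11.4 to 12.6 CPM under vehicle, and the enteric list to 31.5 to 33.9 CPM and 36.4 to 40.0 CPM. Gastric gland markers summed to 0.644 to 1.12 CPM and 2.36 to 3.31 CPM, with Gkn2, Tff1 and Tff2 at 0 in both groups. The endothelial and immune lists overlapped. The skeletal muscle list summed to 9.18 to 10.9 CPM under PB and 19.3 to 19.98 CPM under vehicle. Of its 16 genes, 3 under PB and 4 under vehicle averaged at least 1 CPM, and Myh1, Myh2, Myh8 and Myog were at 0 in both groups. The pericyte list summed to 137 to 140.1 CPM and 286 to 298 CPM, of which Notch3 alone averaged 138 and 292 CPM. The fibroblast list summed to 33.4 to 34.9 CPM and 28.2 to 31.97 CPM, with 1 of its 12 genes at a mean of at least 1 CPM in either group. Kcnj8 and Abcc9 were at 0 in both groups, as were Col3a1 and Lum, and the part of these lists in the levels of Tagln and Smtn was not tested.

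Of the 30 other contractile genes, 20 were tested under PB. Of these, 6 rose, 7 fell and 7 were not past the threshold, beside 36.5% higher and 36.8% lower over all genes tested. Flna, filamin A, rose to 1081 ± 35.4 CPM under PB, against 661 ± 10.2 CPM under vehicle (SD, n = 3 each; log2 fold change 0.85 ± 0.02, edgeR adjusted p = 2.06e-43). Actn1, alpha-actinin 1 (0.46 ± 0.02, adjusted p = 7.22e-27), and Rbpms, an RNA-binding protein (0.50 ± 0.05, adjusted p = 6.50e-13), also rose. Smtnl2 fell to 0.521 ± 0.387 CPM under PB, against 6.67 ± 0.578 CPM under vehicle (-3.51 ± 0.26, adjusted p = 1.55e-19, or -4.31 without PB replicate 3), and Tpm1 (-0.24 ± 0.03, adjusted p = 2.90e-13) and Tpm2 (-0.25 ± 0.03, adjusted p = 4.47e-13) fell. Of the 18 regulators, 8 were tested, with 3 higher (Tead1 at 0.55 ± 0.03, Mef2d at 0.43 ± 0.05 and Gata6 at 1.11 ± 0.24) and 3 lower. The lower ones were Mkl1, a myocardin relative, at -0.33 ± 0.06, Mkl2 at -0.41 ± 0.05, and Srf at -0.14 ± 0.04 (edgeR adjusted p = 6.32e-04, or -0.28 on the library total). Myocd had no count. Of the 20 receptors and channels, 4 were tested, with 1 higher and 3 lower. The higher one, named after its values were seen, was Cacna1d, another pore subunit of L-type calcium channels, at 0.853 ± 0.167 CPM under PB and 0.0651 ± 0.113 CPM under vehicle (SD, n = 3 each; 3.74 ± 0.67, adjusted p = 1.14e-06). A single vehicle library, replicate 2, held its counts, and without that library the log2 fold change was 6.81, a value set against libraries at 0. Pde5a fell by 1.01 ± 0.08 on the log2 scale (adjusted p = 1.10e-17) and Ednra by 1.00 ± 0.32 (adjusted p = 0.00470). Ednra lost its call without PB replicate 2 (-0.74, adjusted p = 0.0538). Itpr1 fell by 0.14 ± 0.05 (adjusted p = 0.0101) and lost its call with DESeq2 (adjusted p = 0.0912) and without PB replicate 2 (adjusted p = 0.0510). Cacna1c, whose protein is the main subunit of the channel that PB blocks, was too low to be tested here, at 0.371 ± 0.148 CPM under PB and 0.469 ± 0.441 CPM under vehicle (SD, n = 3 each).

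Over all 18 libraries, on log2(CPM + 1), Pearson's r with Acta2 was 0.998 for Actg2, 0.993 for Myh11, 0.992 for Tagln, 0.984 for Mylk, 0.978 for Synpo2, 0.972 for Cnn1, 0.960 for Lmod1, 0.943 for Des and -0.861 for Smtn. These values are descriptions: the gap between the 5 libraries of the tumor table and the other 13 sets them, and Lmod1 and Des, which differed from Acta2 in direction within the tumor table, still reached high values. The 10 genes most like the summed level of the 10 contractile genes, among 12187 genes compared, were Wipf1, Cd302, Timp3, Mxra8, Colec12, Fbn1, Rassf2, Tmem246, Fstl1 and Aldh1a1, at r of 0.988 to 0.996. With the sum of Acta2, Tagln, Cnn1, Myh11 and Actg2 as the profile, a choice made after the values were seen, the 10 most like it, at r of 0.988 to 0.991, included Gpx3, C1qtnf1, Lbp, Olfml3, Ncf4, Fcer1g, Cd52, Plvap and Fabp3. Timp3, a matrix metalloproteinase inhibitor, averaged 95.6 CPM in tumor sgTgfbr2 and 112 CPM in tumor sgScr, and Gpx3, a secreted glutathione peroxidase, 499.8 and 78.6 CPM.

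Per kilobase of exon, the order of the 10 genes differed between the tumor groups. In tumor sgTgfbr2 it was Tagln (274 CPM per kilobase), Acta2 (226), Actg2 (100.2), Des and Cnn1 (both 62.7), Myh11 (25.5), Smtn (12.4), Mylk (8.73), Lmod1 (3.01) and Synpo2 (2.03). In tumor sgScr it was Des (436), Tagln (63.1), Acta2 (51.5), Actg2 (33.0), Cnn1 (14.8), Smtn (10.0), Lmod1 (5.04), Myh11 (3.96), Mylk (2.82) and Synpo2 (1.91). The 10 lengths are unions of annotated exons, 1557 bases for Actg2 to 13089 for Synpo2, and a gene that uses short transcripts is understated. Tagln overlaps Pcsk7 on the opposite strand, and Des, Smtn, Lmod1, Synpo2 and Mylk each overlap at least 1 annotated noncoding gene or pseudogene on the opposite strand. Synpo2 also overlaps 3 provisional gene models on its own strand. The strand setting of the counting was not given in the sources used here, so reads of such overlaps cannot be told apart.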

How the data were processed

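Bulk RNA-seq of 18 mouse organoid libraries was deposited by the authors as 3 tables of 24421 genes, with whole-number counts per gene and library, per the file headers. STAR 2.6.0a, DESeq2 1.26.0 and mm10 were used, per the submitters' processing notes. The counting program, annotation and strand setting were not given in the sources used here. Normalized values (18 signal columns), log2 fold changes and p-values deposited by the authors were left unused.

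The title, genotype and treatment labels gave each library its group. CPM are counts per 1000000 counts of the library total. Groups were compared within each table with R 4.3.3 and edgeR 4.0.16 (filterByExpr with a minimum count of 10, TMM, two-sided quasi-likelihood F test, Benjamini-Hochberg adjustment, threshold 0.05). Standard errors are the absolute log2 fold change divided by the square root of F. The 10 genes and the lists were chosen with earlier results of these data known. The rule for other named genes took, from each of 3 lists (30 other contractile genes, 18 regulators, 20 receptors and channels), up to 6 genes past the threshold by smallest p with a mean of at least 1 CPM, plus Srf, Myocd and Cacna1c. For likeness it took the 10 highest Pearson r on log2(CPM + 1) among genes with a mean of at least 5 CPM in a group, leaving out predicted or unnamed ones. Genes named beside that rule are marked as such, and some genes that met a selection are not reported here.

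Positions and exon lengths are from GENCODE M21 (GRCm38, the assembly of mm10), promoters from RefSeq. Replicate pairs were compared by chi-square (genes of 20 or more counts), at 1.51 to 57.7 per degree of freedom over 19 pairs, so none were merged. Premalignant sgTgfbr2 pairs stood at 6.42 and 7.10 within a line and at 38.1 to 57.7 between lines. PB and vehicle pairs stood at 1.51 to 2.03, the nearest to counting error. The fits were tested on simulated data. Alternatives were DESeq2 1.42.0, no filter, a filter of 1 CPM, a replicate block, each library left out, the premalignant lines alone or summed, and 2 other denominators of CPM. The library total in place of TMM, the sum without Smtn and that without Smtn and Des were added after the data were seen. So were the pericyte sum without Notch3 and the second likeness profile.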

Additional observations from a re-analysis of the deposited data

Results flagged for a closer look

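None of the 10 contractile genes was flagged for a closer look, while genes named beside them were. Only Tagln, Cnn1, Smtn and Mylk of the 10 passed the filter in the premalignant table, so nothing is read from the missing flags. Lmod1, not tested there, had every sgTgfbr2 library above the sgScr mean, at 0.180 to 0.276 against 0.0170 CPM. In the tumor table it lay below that mean, at 10.8 to 13.0 against 19.9 CPM. Tead1 was set apart in premalignant sgTgfbr2, the only group of 4 libraries, by its highest library, at 209 CPM against 171 CPM for the lowest. The gap to the next library was 0.881 of the range of the group. Chance flags about 1 in 20 groups for a single gene, and more than 1 gene was screened, so nothing is read from this flag.

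Opposite directions of the sgTgfbr2 difference in the premalignant and tumor tables were flagged in 6 genes, all of which passed the filter in both. In these, every sgTgfbr2 library lay on one side of the sgScr mean in one table and on the other side in the other table. As log2 ratios of mean CPM, sgTgfbr2 over sgScr, Cacna2d1 stood at 1.75 in premalignant and -0.926 in tumor libraries, Ppp1r12b at 2.02 and -1.64, Tead1 at 0.698 and -0.851, and Tpm1 at 0.588 and -2.32. Srf stood at -0.473 in premalignant and 0.606 in tumor libraries, and Myl6 at -0.448 and 0.567. All these ratios are on the library total, which moved the median of all genes in the tumor table by 0.29. With TMM, Srf stood at 0.32 in the tumor table, not past the threshold. The premalignant sgTgfbr2 lines were flagged for going opposite ways against sgScr in 3 genes that passed the filter. These were Actn1 at -0.0706 in line 1 and 0.24 in line 2, Cald1 at -0.661 and 0.666, and Gata6 at -1.06 and 1.08. Only the contractile genes and the other named genes were screened, and the latter were mostly named for passing the threshold. No share over all genes was computed for either flag, so nothing is read from the numbers of genes flagged. None of these differences between tables or lines was tested.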

How the results depend on the processing

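The calls over all genes stayed within 1.5 times of their number under every alternative run. With each library left out in turn they were 4043 to 5997 in the premalignant, 8014 to 8648 in the tumor and 9043 to 9106 in the PB comparison, beside 6057, 9095 and 9379 with all libraries. With the replicate number as a block they were 4739, 7607 and 9365; samples with the same number deviated together at r of only -0.087 to 0.085, so the numbers do not pair them. With the block Cacna2d1 (adjusted p = 0.150) and Ptger3 (0.0960) in the premalignant table and Heyl (0.0594) in the tumor table were not past the threshold. With the libraries of each premalignant sgTgfbr2 line summed, 4343 genes were called in the premalignant comparison.

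The summed level of the 10 genes moved with the denominator. On the TMM-scaled total it was 1765 CPM in tumor sgTgfbr2, 2294 in tumor sgScr, 125.4 under PB and 138.9 under vehicle, and without the 10 highest genes of each library 2219, 2577, 125.5 and 152.8. Without Smtn it was 7.024 CPM in premalignant sgTgfbr2, 3.136 in premalignant sgScr, 2.078 under PB and 5.556 under vehicle. Left-out libraries moved the sum to 235 to 274.4 and 182.3 to 214.7 CPM in premalignant sgTgfbr2 and sgScr, 1913 to 2068 and 2060 to 2156 in tumor sgTgfbr2 and sgScr, and 116.8 to 122.5 and 145.1 to 146.8 under PB and vehicle.

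Of 181 alternative log2 fold changes of the 10 genes, 162 moved by less than the spread between replicates and 19 by more, 11 of them by the library total in place of TMM, and no called one changed sign. Of 678 alternative values of the other named genes, 634 stayed on the same side of the threshold, 40 lost the call, 4 gained it and none reversed. Without 1 tumor sgTgfbr2 library, the other is assumed to vary like sgScr. Outside the tumor table depth limits 9 of the 10 genes, which stood at 3.76 CPM or lower.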
